A study of Homo sapiens with 12 samples.

Results

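The integrated stress response was followed through 10 genes in 2 human ovarian cancer cell lines treated with BAY-850, a ligand of the ATAD2 bromodomain. The genes were taken by their symbols from the 26475 gene symbols counted, and all 10 were found and passed the filter on low counts in both lines. They comprise 5 transcription factors (ATF4, DDIT3, ATF3, ATF5 and CEBPB), a pair of feedback genes (TRIB3 and PPP1R15A), the glutathione-degrading enzyme CHAC1, and the secreted hormones INHBE and GDF15. The genes were chosen by the pathway they belong to with their levels in the 4 groups and their differences between BAY-850 and DMSO in view, so those levels and differences are given as a description. Where it is said how many of the 10 were past a threshold, the count describes values already known and is not a test. PA-1 cells, from an ovarian teratocarcinoma, were grown in DMEM, and SK-OV-3 cells, from an ovarian adenocarcinoma, in RPMI. The paper describes the tumor suppressor p53 as mutated in PA-1 and deleted in SK-OV-3. Each line was kept for 48 h either with the vehicle DMSO or with BAY-850 at 5 µM. The 4 groups had 3 biological replicates each, which gave 12 libraries. Each line stands for 1 tumor, and cell line and culture medium cannot be told apart in any comparison between the lines.

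In the integrated stress response, kinases that sense amino acid shortage, unfolded proteins, double-stranded RNA or a lack of heme phosphorylate the translation factor eIF2. General translation then falls while the mRNA of ATF4 is translated more, and ATF4 switches on genes of amino acid supply together with further transcription factors such as CHOP, the protein of DDIT3. GADD34, the protein of PPP1R15A, and TRIB3 act against the response. GDF15 and INHBE encode hormones of the TGF-beta family that stressed cells secrete. RNA levels do not show the phosphorylation of eIF2 or the translation of ATF4, which were not analysed here.

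The libraries held 34544481 to 51840249 counts, of which genes for ribosomal RNA took 7.94% to 16.9%. Levels are CPM, the counts of a gene relative to the library's total, scaled with TMM factors over all 12 libraries, and folds and log2 fold changes come from a fit across all genes of each line, with the standard error (SE) of the fit. A gene passed the threshold when its p-value, adjusted over all genes of the comparison (edgeR's quasi-likelihood test, Benjamini-Hochberg), was under 0.05. The 10 PA-1 marker genes summed to 1441 to 1737 CPM in PA-1 libraries and to 36.3 to 81.6 CPM in SK-OV-3 libraries, and the 11 SK-OV-3 marker genes to 3216 to 4666 CPM in SK-OV-3 and 933 to 1059 CPM in PA-1. Single markers went against the sums. With DMSO, L1TD1 (0.448 CPM) and TDGF1 (0.0660 CPM) were near 0 in PA-1, and MUC16 was at 0.737 CPM in SK-OV-3. KRT18 (335 and 266 CPM) and WT1 (4.39 and 2.04 CPM) were higher in PA-1 than in SK-OV-3. In SK-OV-3 cells both sums moved with BAY-850, from 36.3 to 40.8 CPM up to 78.9 to 81.6 CPM for the former and from 4365 to 4666 CPM down to 3216 to 3695 CPM for the latter. Nearly all of the former rise was DNMT3B, at 31.5 ± 1.90 and 70.6 ± 2.08 CPM (SD, n = 3), while DPPA4 had no count in any SK-OV-3 library. The 10 markers of blood, vessels and stroma summed to 168 to 176 CPM with DMSO and 86.2 to 112 CPM with BAY-850 in SK-OV-3, almost all of it COL1A1, with HBB and CD3E at 0. In PA-1 they summed to 462 to 569 CPM with DMSO and 602 to 655 CPM with BAY-850. COL1A1 was at 462 CPM, PECAM1 at 23.6 CPM and CDH5 at 9.13 CPM in PA-1 with DMSO. The part of the markers in the differences below was not tested. SK-OV-3 BAY-850 replicate 3 was the deepest library but had the fewest genes with a count (15629, against 17425 to 18414 in the others), so values of the 10 genes without it are given as well. All libraries are bulk RNA, in which fewer cells of a kind and less RNA per cell cannot be told apart.

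With DMSO, 8 of the 10 genes were lower in SK-OV-3 cells than in PA-1 cells, 5 of them by more than 2-fold. Of all 16070 genes tested between the lines with DMSO, 80.3% passed, 40.2% lower and 40.1% higher in SK-OV-3. BAY-850 was accompanied by higher levels of most of the 10 genes in SK-OV-3 but not in PA-1. In SK-OV-3 cells 7 of the 10 genes were past the threshold and higher with BAY-850 (INHBE, CHAC1, GDF15, TRIB3, DDIT3, CEBPB and ATF4), 1 was lower (ATF5), and ATF3 and PPP1R15A did not pass. Of all 15348 genes tested in that line, 20.4% passed. In PA-1 cells 1 gene was past the threshold and higher (GDF15) and 2 were lower (DDIT3 and PPP1R15A), while 7.13% of the 15212 genes tested passed. The median log2 fold change of the 10 genes was 1.00 in SK-OV-3 and -0.026 in PA-1, beside medians of -0.0091 and -0.0019 over all genes tested. Because these contrasts were in view when the genes were chosen, nothing is read from the counts, and INHBE passed the filter on low counts in SK-OV-3 only through the treated libraries, where it was high. The same 7 genes were higher and the same gene lower when SK-OV-3 BAY-850 replicate 3 was left out. Without it the log2 fold change in SK-OV-3 was 0.42 for ATF4, 1.17 for DDIT3, -0.40 for ATF5 and 0.84 for CEBPB. It was 1.52 for TRIB3, 3.93 for INHBE and 0.090 for PPP1R15A, and the values of ATF3, CHAC1 and GDF15 are given below.

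**Figure D1:**
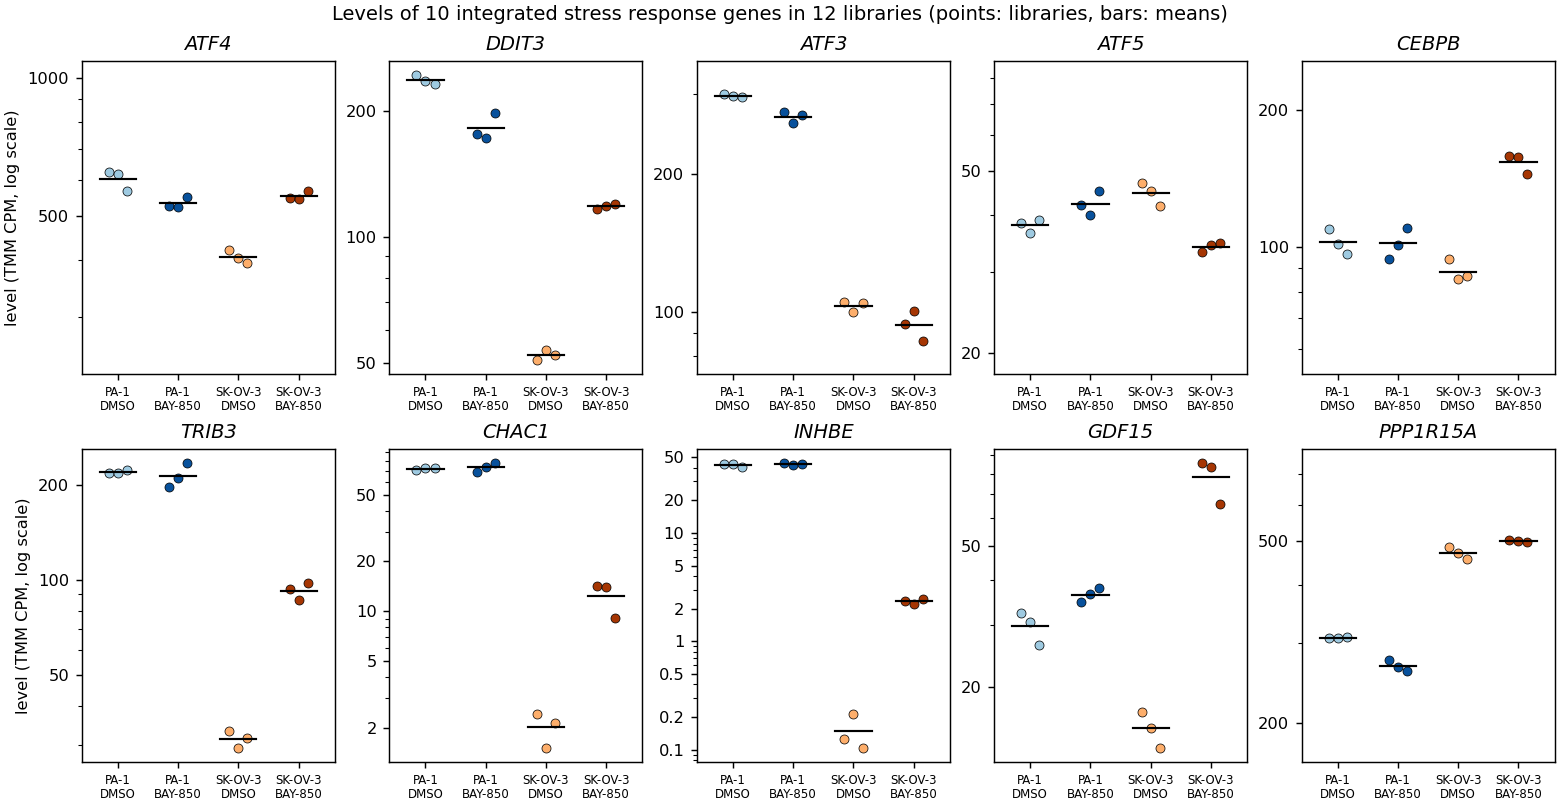
Level of each gene in TMM-scaled CPM (vertical axis, logarithmic, with its own range in each panel) in the 4 groups. Points are the 3 libraries of a group and bars their means. INHBE, CHAC1, TRIB3, DDIT3 and GDF15 are lowest in SK-OV-3 cells with DMSO and higher in every SK-OV-3 library with BAY-850. Of these, INHBE, CHAC1 and TRIB3 overlap between the PA-1 groups. DDIT3 is lower and GDF15 higher in every PA-1 library with BAY-850 than in those with DMSO.

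ATF4 encodes the transcription factor at the center of the response and lies on chromosome 22 of GRCh38 from 39519695 to 39522685 (plus strand). In PA-1 cells its level was 623, 617 and 567 CPM in the 3 DMSO libraries and 526, 522 and 551 CPM in the 3 BAY-850 libraries. In SK-OV-3 cells it was 421, 405 and 394 CPM with DMSO and 547, 543 and 566 CPM with BAY-850. The groups did not overlap in either line, with the treated libraries lower in PA-1 and higher in SK-OV-3. The means were 602 ± 30.8 and 533 ± 15.4 CPM (SD, n = 3) in PA-1, a log2 fold change of -0.17 (SE 0.0543), and 407 ± 13.8 and 552 ± 11.96 CPM in SK-OV-3, a log2 fold change of 0.45 (SE 0.0493), or 1.37-fold. With BAY-850 the libraries of both lines overlapped, and the treated SK-OV-3 mean was 91.7% of the untreated PA-1 mean. Per kilobase of exon, ATF4 had the highest mean of the 10 genes in 3 of the 4 groups (240 CPM per kb in PA-1 with DMSO), and PPP1R15A had the highest in SK-OV-3 with DMSO (198 CPM per kb).

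DDIT3 encodes CHOP, a C/EBP-family factor that promotes cell death under lasting stress, and lies on the minus strand of chromosome 12 from 57516588 to 57521737. It stood at 243, 235 and 231 CPM in PA-1 cells with DMSO and at 176, 172 and 197 CPM with BAY-850. The SK-OV-3 libraries held 50.9, 53.6 and 52.4 CPM with DMSO and 116, 119 and 120.0 CPM with BAY-850. None of the 4 groups overlapped another, and DDIT3 moved in opposite directions in the lines. Its log2 fold change was -0.38 (SE 0.0616) in PA-1 and 1.19 (SE 0.0573) in SK-OV-3, where it was 2.28-fold higher and reached 50.1% of the untreated PA-1 mean. Parts of MARS and MBD6 lie on the opposite strand of DDIT3, and since it is not given in the sources used here whether strand entered the counting, reads of these genes may not have been told apart.

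CEBPB, a partner of ATF4 and CHOP on DNA, is found on chromosome 20 from 50190734 to 50192689 (plus strand). Its level was 109.7, 102 and 96.5 CPM with DMSO and 94.3, 101 and 110.2 CPM with BAY-850 in the PA-1 line, and the groups overlapped fully. In SK-OV-3 it was 94.1, 85.0 and 86.4 CPM with DMSO and 159, 157 and 145 CPM with BAY-850. Treated SK-OV-3 cells held more CEBPB mRNA than any other group, at 149.7% of the untreated PA-1 mean. The log2 fold change was 0.81 (SE 0.0594), or 1.75-fold, in SK-OV-3 and -0.0078 (SE 0.0694) in PA-1. Expected counts of CEBPB were not whole numbers in all 12 libraries, since part of its reads was shared out among genes, and CEBPB-AS1 lies on its opposite strand.

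ATF3 and ATF5 did not follow the other regulators in SK-OV-3 cells. ATF3, a factor induced by ATF4 and by many other stimuli, lies on chromosome 1 from 212565334 to 212620777 (plus strand). It was at 299, 297 and 294 CPM in PA-1 with DMSO and at 273, 259 and 269 CPM with BAY-850. SK-OV-3 cells had 105, 100.02 and 104 CPM with DMSO and 93.8, 100.4 and 86.4 CPM with BAY-850, and these groups overlapped. The log2 fold changes were similar in both lines, at -0.15 (SE 0.0515) and -0.13 (SE 0.0607), and without SK-OV-3 BAY-850 replicate 3 the latter was -0.087.

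ATF5, which like ATF4 is translated when eIF2 is phosphorylated, lies on chromosome 19 from 49928702 to 49933935 (plus strand). PA-1 cells had 38.5, 36.6 and 38.9 CPM with DMSO and 42.0, 39.96 and 45.1 CPM with BAY-850. In SK-OV-3 cells the values were 46.9, 45.1 and 42.0 CPM with DMSO and 33.3, 34.3 and 34.7 CPM with BAY-850. ATF5 was thus a little higher with BAY-850 in PA-1 (log2 fold change 0.16, SE 0.0687) and lower in SK-OV-3 (-0.38, SE 0.0743), without overlap in either line. It is the single gene of the 10 that was past the threshold and lower in SK-OV-3. Expected counts of ATF5 were not whole in 7 of 12 libraries, and IL4I1 and NUP62 overlap it on the opposite strand.

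The promoters of the regulators were searched for DNA elements of the response because most of the genes moved together in SK-OV-3 cells. RefSeq start sites of GRCh38.p14 were given for 9 of the 10 genes, and the 250 bases before each start were read on both strands. The core of the C/EBP-ATF response element, TGATGNAA, which composite sites of ATF4 and C/EBP factors share, occurred in ATF3 and CHAC1, and in at least 1 promoter of 3.89% of all 27305 genes given. The cAMP response element TGACGTCA occurred in PPP1R15A and in 2.03% of genes. The AP-1 element TGAGTCA was found in DDIT3 and ATF5 and in 5.19% of genes. The ER stress response element (CCAAT and CCACG with 9 bases between them) had an exact match in none of the 9 genes and in 0.0916% of all genes. DDIT3 holds CCAAT and CCACT with 9 bases between them, which differs in the last letter and was not counted. Only exact matches within the 250 bases were counted, so near matches and sites further away are not covered. A match is a description of the letters and not a bound site. In the ATF3 stretch, from RefSeq at chr1:212565157-212565333 (plus strand, ending before the first annotated exon), capitals mark the match to TGATGNAA:
ATF3: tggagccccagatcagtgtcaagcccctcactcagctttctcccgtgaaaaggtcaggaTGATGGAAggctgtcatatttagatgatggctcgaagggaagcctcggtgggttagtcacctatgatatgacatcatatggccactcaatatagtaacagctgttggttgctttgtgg

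TRIB3 and PPP1R15A restrain the response. TRIB3, a pseudokinase that binds ATF4 and AKT, lies on chromosome 20 from 362835 to 397559 (plus strand). In PA-1 it was at 219, 219 and 224 CPM with DMSO and at 197, 210.1 and 234 CPM with BAY-850. In SK-OV-3 it was at 33.2, 29.4 and 31.5 CPM with DMSO and at 93.6, 86.2 and 97.8 CPM with BAY-850. The PA-1 groups overlapped and the SK-OV-3 groups did not, with all treated libraries higher. The log2 fold change was 1.58 (SE 0.0778), or 2.98-fold, in SK-OV-3 and -0.044 (SE 0.0648) in PA-1. The treated SK-OV-3 mean remained at 42.0% of the untreated PA-1 mean.

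PPP1R15A encodes GADD34, which directs a phosphatase to eIF2 and so ends the response, and lies on chromosome 19 from 48872392 to 48876057 (plus strand). PA-1 libraries held 307, 307 and 308 CPM with DMSO and 275, 265 and 259.7 CPM with BAY-850. SK-OV-3 libraries held 487, 469.8 and 458 CPM with DMSO and 502, 501 and 497 CPM with BAY-850. Here the order of the lines was the reverse of that of most other genes, since every SK-OV-3 library lay above every PA-1 library. The log2 fold changes with BAY-850 were small, at -0.20 (SE 0.0513) in PA-1 and 0.099 (SE 0.0449) in SK-OV-3. Its promoter, shown for the cAMP response element marked in capitals, is the RefSeq sequence at chr19:48872171-48872391 (plus strand):
PPP1R15A: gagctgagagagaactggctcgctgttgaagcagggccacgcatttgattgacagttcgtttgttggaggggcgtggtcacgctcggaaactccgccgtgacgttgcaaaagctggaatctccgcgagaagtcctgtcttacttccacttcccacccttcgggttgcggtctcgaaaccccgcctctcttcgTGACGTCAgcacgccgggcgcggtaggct

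CHAC1, an enzyme that cleaves glutathione and a known target of ATF4 and CHOP, lies on chromosome 15 from 40952962 to 40956519 (plus strand). In PA-1 cells its level was 70.7, 72.2 and 72.2 CPM with DMSO and 68.8, 73.3 and 77.4 CPM with BAY-850. In SK-OV-3 cells it was 2.41, 1.51 and 2.12 CPM with DMSO and 14.2, 13.997 and 9.07 CPM with BAY-850. The treated SK-OV-3 libraries all lay above the untreated ones and far below all PA-1 libraries, and replicate 3 lay below the other treated replicates. The log2 fold change in SK-OV-3 was 2.63 (SE 0.228), or 6.18-fold, and 2.80 (SE 0.177) without replicate 3 of BAY-850. In PA-1 it was 0.031 (SE 0.0614). The match to TGATGNAA lies on the minus strand of the gene in 30 RefSeq bases at chr15:40953251-40953280 (plus strand shown, within an annotated exon of longer transcripts), with the match in capitals:
CHAC1: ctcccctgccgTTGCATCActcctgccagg

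INHBE, the gene of the inhibin beta E subunit that forms activin E, showed the widest range. It lies on chromosome 12 from 57452323 to 57459280 (plus strand). PA-1 cells had 43.6, 43.0 and 40.9 CPM with DMSO and 43.9, 42.4 and 43.7 CPM with BAY-850, which overlapped. In SK-OV-3 cells with DMSO it was close to the limit of detection, at 0.126, 0.212 and 0.104 CPM, which correspond to 5, 8 and 4 counts. With BAY-850 it was at 2.36, 2.2025 and 2.48 CPM, or 96, 93 and 133 counts. The log2 fold change of 3.99 (SE 0.484), or 15.9-fold, rests on these few counts with DMSO, and the treated mean was 5.53% of the untreated PA-1 mean. In PA-1 the log2 fold change was 0.031 (SE 0.0623).

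GDF15, a hormone that acts on the brainstem receptor GFRAL and is also a target of p53, lies on chromosome 19 from 18374731 to 18389176 (plus strand). PA-1 libraries held 32.4, 30.6 and 26.3 CPM with DMSO and 34.8, 36.7 and 38.0 CPM with BAY-850. SK-OV-3 libraries held 17.1, 15.4 and 13.5 CPM with DMSO and 85.4, 83.2 and 65.5 CPM with BAY-850. No group overlapped another, and GDF15 was the gene of the 10 whose treated SK-OV-3 level stood furthest above PA-1, at 262% of the untreated PA-1 mean. The log2 fold change was 2.36 (SE 0.113), or 5.13-fold, in SK-OV-3 and 0.29 (SE 0.0812), or 1.23-fold, in PA-1. Leaving out SK-OV-3 BAY-850 replicate 3, the lowest treated library, gave 2.46 (SE 0.0891).

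**Figure D2:**
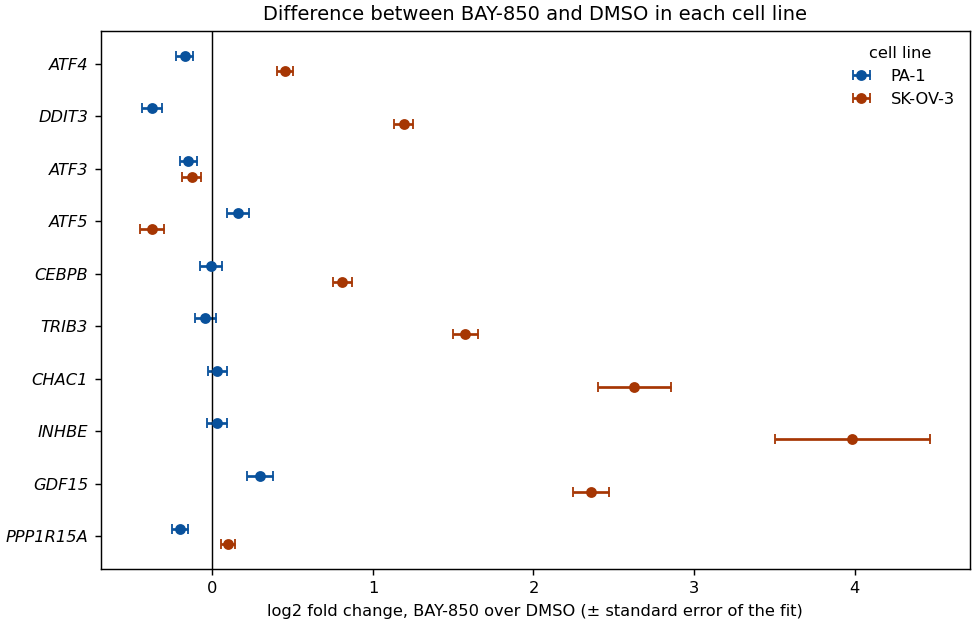
Log2 fold change between BAY-850 and DMSO (horizontal axis) for each gene in PA-1 and SK-OV-3 cells, with bars for the standard error of the fit. The PA-1 values lie between -0.38 and 0.29, and the SK-OV-3 values between -0.38 and 3.99.

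Among the replicates, 9 of the 10 genes did not overlap between BAY-850 and DMSO in SK-OV-3 (8 higher and 1 lower) and 6 did not in PA-1 (2 higher and 4 lower), beside 38.6% and 27.5% of all genes tested. PPP1R15A was the gene that did not overlap in SK-OV-3 and yet missed the threshold. In the fit of both lines, the log2 difference between the SK-OV-3 and PA-1 changes was above 0 and past the threshold for 8 genes, below 0 for ATF5, and 0.01 for ATF3, which did not pass. It was 3.95 for INHBE, 2.58 for CHAC1, 2.05 for GDF15, 1.61 for TRIB3 and 1.56 for DDIT3. It was smaller for CEBPB (0.81), ATF4 (0.62) and PPP1R15A (0.29), and -0.55 for ATF5. Of all 16830 genes in that fit, 14.5% passed (6.7% above 0 and 7.77% below). The changes in both lines were in view when the 10 genes were chosen, so nothing is read from their count here either.

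Which genes passed in PA-1 depended on single libraries. GDF15 missed the threshold in PA-1 when any one of 5 of the 6 libraries was left out (log2 fold changes between 0.22 and 0.36) and PPP1R15A for 4 of 6 (between -0.23 and -0.18), while ATF4 passed without DMSO replicate 3 (-0.21) or BAY-850 replicate 3 (-0.20). PA-1 log2 fold changes rose with the GC content of genes (Spearman's rho across genes, no independent replicates, was 0.366 there and 0.0974 in SK-OV-3), and the 10 genes lie between the percentiles 51.4 (DDIT3) and 97.4 (CEBPB) of GC content among coding genes. With the GC trend of each library removed, the PA-1 value of GDF15 was 0.17 and it no longer passed, and that of ATF4 was -0.24 and it passed. In SK-OV-3, PPP1R15A passed without DMSO replicate 1 (0.13).

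The comparison of the lines with DMSO alone shows where the genes started. It uses the same DMSO libraries as the treatment comparisons, so a gene low in untreated SK-OV-3 cells enters both. With DMSO, 8 of the 10 genes were lower in SK-OV-3 and ATF5 and PPP1R15A were higher, all past the threshold and without overlap. These levels were in view when the genes were chosen, so the values are a description. Such differences were general, since 80.3% of the 16070 genes tested passed (40.2% lower and 40.1% higher in SK-OV-3) and 82.3% did not overlap (41.2% lower and 41.1% higher). INHBE was 285-fold lower in SK-OV-3 (log2 difference -8.15, SE 0.164), CHAC1 35.5-fold lower (-5.15, SE 0.121), TRIB3 7.05-fold lower (-2.82, SE 0.0622) and DDIT3 4.53-fold lower (-2.18, SE 0.0545). ATF3 (-1.53, SE 0.0511), GDF15 (-0.96, SE 0.110) and ATF4 (-0.57, SE 0.0547) followed. CEBPB was close between the lines at -0.22 (SE 0.0658), as was ATF5 at 0.23 (SE 0.0693). PPP1R15A was 1.53-fold higher in SK-OV-3 (0.61, SE 0.0487). With the line and the medium confounded, these differences cannot be assigned to either.

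**Figure D3:**
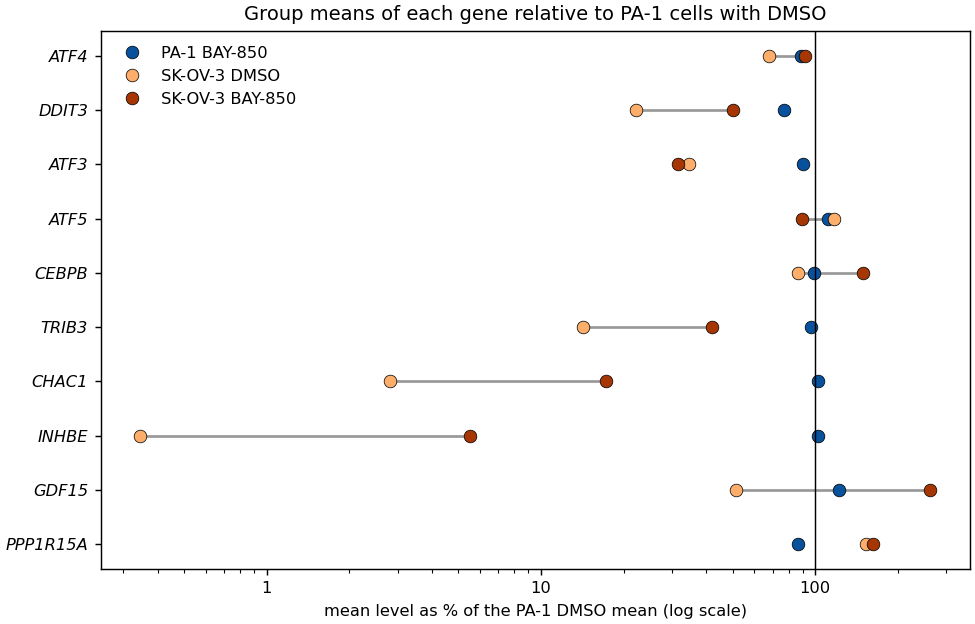
Mean level of each gene in PA-1 cells with BAY-850 and in SK-OV-3 cells with DMSO or BAY-850, as a percentage of the mean in PA-1 cells with DMSO (horizontal axis, logarithmic, vertical line at 100), with a gray line joining the SK-OV-3 means. INHBE went from 0.346% to 5.53%, CHAC1 from 2.81% to 17.3%, TRIB3 from 14.2% to 42.0% and GDF15 from 51.5% to 262%.

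At the upstream end of the pathway, 2 of the 4 eIF2 kinases rose in SK-OV-3 and none passed in PA-1. EIF2AK3 (PERK, which senses unfolded proteins in the endoplasmic reticulum) rose from 28.2 ± 2.47 to 45.2 ± 4.55 CPM (log2 fold change 0.70, SE 0.0984, adjusted p = 5.18e-04, edgeR). EIF2AK2 (PKR, which senses double-stranded RNA) rose there from 73.1 ± 4.67 to 109 ± 16.3 CPM (0.59, SE 0.102, adjusted p = 0.00197, edgeR). Its treated libraries were at 102, 97.3 and 128 CPM, highest in replicate 3. EIF2AK1 (HRI, activated by a lack of heme) was at 84.6 ± 1.13 and 83.6 ± 2.05 CPM and EIF2AK4 (GCN2, which senses uncharged tRNA) at 187 ± 8.54 and 193 ± 0.944 CPM, and neither passed. In PA-1 the log2 fold changes of the 4 ran from -0.13 (EIF2AK3) to 0.082 (EIF2AK4). Of the 11 genes listed as kinases and their regulators, 2 were higher and 2 lower in SK-OV-3, beside 10.8% and 9.56% of all genes. The lower ones were DNAJC3, an inhibitor of PERK and PKR (-0.41), and KIAA0141, also named DELE1, which carries mitochondrial stress to HRI (-0.28). DNAJC3 was at 36.9, 37.9 and 28.7 CPM in the SK-OV-3 BAY-850 libraries, lowest in replicate 3. In PA-1, 2 were higher, namely GCN1, which assists GCN2 (0.33), and ABCF1 (0.26), beside 4.65% of all genes. This count fell to 0 with library size alone as the scaling and with GC trends of the libraries removed. It was also 0 when DMSO replicate 1, DMSO replicate 2 or BAY-850 replicate 2 of PA-1 was left out.

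Of 14 genes for eIF2, its exchange factor eIF2B and the eIF2 phosphatase, 2 were higher in SK-OV-3 (EIF2S2 at 0.33 and PPP1CB at 0.15) and 1 was lower (EIF2B3 at -0.36). Of all genes, 10.8% were higher and 9.56% lower in SK-OV-3, and 4.65% and 2.48% in PA-1. EIF2S2 was the 1 gene of the list that passed in PA-1, where it was lower (-0.20). EIF2S1, the subunit that is phosphorylated, passed in neither line, with log2 values of -0.12 and -0.068, and PPP1R15B, the constitutive partner of the phosphatase, had -0.089 and 0.13 in PA-1 and SK-OV-3 and likewise did not pass.

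Among 21 partners of the bZIP factors, 11 rose and 3 fell in SK-OV-3 (median log2 fold change 0.23), where 10.8% and 9.56% of all genes rose and fell. CEBPG, a partner of ATF4, rose from 65.5 ± 2.98 to 96.0 ± 0.873 CPM (0.56, SE 0.0580, adjusted p = 5.40e-05, edgeR), CEBPD from 56.6 ± 5.40 to 109 ± 1.49 CPM (0.96, SE 0.0720, adjusted p = 4.74e-06, edgeR) and JDP2 from 26.4 ± 2.45 to 41.0 ± 3.45 CPM (0.65, SE 0.0923, adjusted p = 5.65e-04, edgeR). FOSB fell from 66.5 ± 2.03 to 2.32 ± 0.467 CPM (-4.83, SE 0.120, adjusted p = 1.57e-09, edgeR) and FOS from 159 ± 6.03 to 36.7 ± 0.940 CPM (-2.10, SE 0.0582, adjusted p = 3.35e-09, edgeR). In PA-1, 3 rose and 2 fell, with FOSL2 (0.48) and FOSL1 (0.30) higher and FOS (-0.25) and NFE2L2 (-0.25) lower, beside 4.65% of all genes higher and 2.48% lower. The list holds 2 genes that are also ATF4 targets and 4 that are also immediate early genes.

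Known targets of ATF4 outside the 10 genes were the longest list, with 45 genes, and held the most genes past the threshold. Of 44 tested in SK-OV-3, 33 rose and 2 fell (median log2 fold change 0.50), beside 10.8% and 9.56% of all genes. Of 45 in PA-1, 6 rose and none fell (median 0.059), beside 4.65% and 2.48%. The list was written with earlier results of these data known, so its count is not independent evidence. In SK-OV-3, 8 of 11 genes of amino acid and one-carbon synthesis rose and 1 fell, as did 4 and 1 of 8 amino acid transporters, 7 and none of 11 aminoacyl-tRNA synthetases, and 14 and none of the 14 other targets tested, a split made after the values had been seen. In PA-1 none of the synthesis genes or synthetases passed.

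PCK2, a mitochondrial enzyme of gluconeogenesis, rose in SK-OV-3 from 11.7 ± 0.706 to 46.4 ± 1.96 CPM (log2 fold change 1.99, SE 0.0838, adjusted p = 5.59e-08, edgeR). NUPR1, a stress-induced chromatin protein, rose from 9.19 ± 0.822 to 34.1 ± 4.24 CPM (1.90, SE 0.114, adjusted p = 8.91e-07, edgeR), and was at 10.5 ± 1.04 and 11.3 ± 1.33 CPM in PA-1. ASNS, the asparagine synthetase, rose from 16.4 ± 1.17 to 41.5 ± 3.30 CPM (1.36, SE 0.0973, adjusted p = 3.28e-06, edgeR) and was at 1378 ± 8.42 and 1321 ± 43.5 CPM in PA-1, so that the treated SK-OV-3 cells still held a small share of the PA-1 level. PSAT1 of serine synthesis (0.29) and SESN2, which restrains mTORC1 (0.59), also rose in SK-OV-3 and did not pass in PA-1 (0.055 and -0.11). SLC7A11, the cystine transporter (-0.23), and ALDH18A1 of proline synthesis (-0.17) fell in SK-OV-3, but none of the list fell when DMSO replicate 2 or 3 or BAY-850 replicate 1 or 2 was left out.

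A few targets rose in both lines. DDIT4, an inhibitor of mTORC1, rose from 449 ± 42.9 to 935 ± 65.6 CPM in PA-1 (1.06, SE 0.0704, adjusted p = 1.91e-07, edgeR) and from 73.5 ± 1.68 to 223 ± 18.6 CPM in SK-OV-3 (1.61, SE 0.0619, adjusted p = 3.37e-08, edgeR). STC2, a secreted glycoprotein, had log2 fold changes of 0.71 and 1.58 and VLDLR, a lipoprotein receptor, of 0.39 and 0.52, all past the threshold. VEGFA, the angiogenic growth factor, rose by 0.89 in PA-1 and by 1.19 in SK-OV-3. DDIT4, STC2, VLDLR and VEGFA are known to respond to hypoxia as well.

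**Figure D4:**
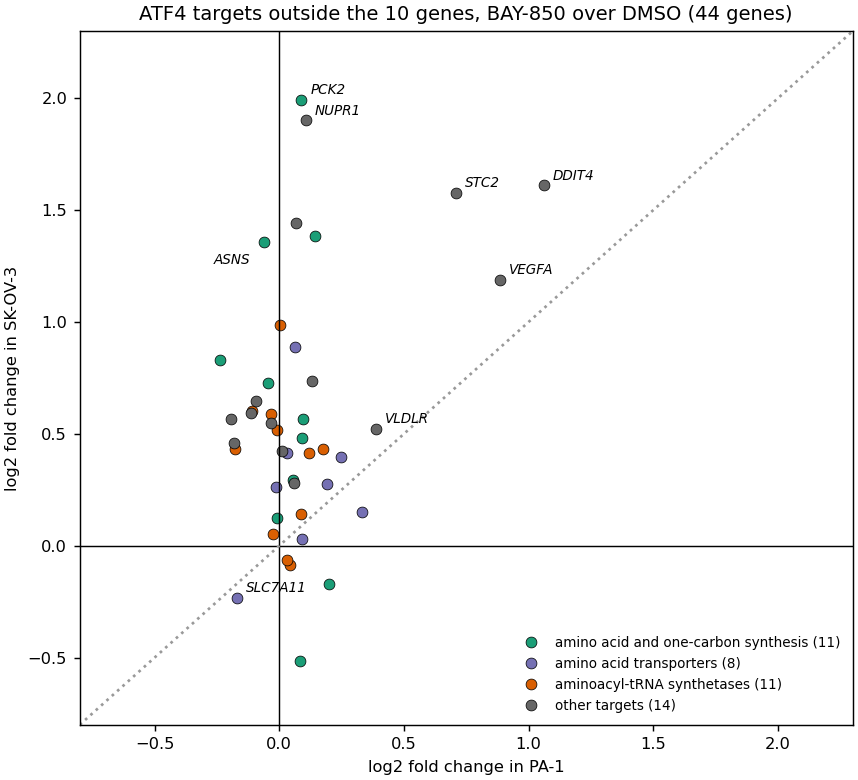
Log2 fold change with BAY-850 in PA-1 (horizontal axis) and in SK-OV-3 (vertical axis) for the 44 ATF4 targets outside the 10 genes that were tested in both lines, colored by function. The dotted line marks equal change. Most points lie above it near 0 on the PA-1 axis, and DDIT4, STC2, VEGFA and VLDLR lie to the right.

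With DMSO, 37 of the 45 ATF4 targets were lower in SK-OV-3 than in PA-1 and 4 were higher (median log2 difference -1.72, beside 0.0019 over all genes). All 11 synthetases and 10 of the 11 synthesis genes were among the lower ones. Of all genes tested, 40.2% were lower and 40.1% higher in SK-OV-3. This comparison shares its DMSO libraries with both treatment comparisons, and the medium differs with the line.

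Of 10 effectors of CHOP, 7 rose and none fell in SK-OV-3 (median 0.29), beside 10.8% and 9.56% of all genes. In PA-1, 1 of 8 tested rose, beside 4.65% of all genes. This list too was written with earlier results of these data known, so its count is not independent evidence. It shares 1 gene with the ATF4 targets (NUPR1), 1 with the bZIP partners and 2 with the p53 targets. BBC3, the cell death protein PUMA, rose in SK-OV-3 from 2.67 ± 0.299 to 8.96 ± 1.53 CPM (1.77, SE 0.195, adjusted p = 9.39e-05, edgeR), and TNFRSF10B, the death receptor DR5, from 99.992 ± 2.93 to 139 ± 11.5 CPM (0.48, SE 0.0619, adjusted p = 2.61e-04, edgeR). TNFRSF10B did not pass in PA-1 (0.20, SE 0.0600). ERO1A, an oxidase of disulfide formation, rose in both lines, by 0.59 in PA-1 and 0.28 in SK-OV-3.

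A list of 13 genes held relatives of TRIB3 and CHAC1, genes of ubiquitin ligases and of glutathione turnover, and NOTCH1. None of them rose and 3 fell in SK-OV-3, where 10.8% and 9.56% of all genes did. Those that fell include TRIB2 (from 25.0 ± 1.46 to 14.4 ± 0.906 CPM, log2 fold change -0.78, SE 0.0962, adjusted p = 2.05e-04, edgeR) and CHAC2 (-0.57, SE 0.155, adjusted p = 0.0235, edgeR). TRIB1 had -0.13 in SK-OV-3 and -0.074 in PA-1 and passed in neither. In PA-1, NOTCH1, whose maturation CHAC1 inhibits, rose by 0.59 and GGCT, a glutathione-cycle enzyme, had -0.25 and was lower.

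The list of other TGF-beta family hormones and receptors also held linked genes outside the family, such as the protease FURIN, FGF21 and the receptor FGFR1. Its share past the threshold in SK-OV-3 was not above that of all genes. Of 14 tested in SK-OV-3, 1 rose (ACVR2B, an activin receptor, 0.45) and 1 fell (the protease FURIN, -0.22), beside 10.8% and 9.56% of all genes. Of 20 in PA-1, 2 rose (FGFR1, a receptor that FGF21 uses, 0.27, and FST, 0.23) and none fell, beside 4.65% and 2.48%. INHBA, the subunit of activin A, was at 21.1 ± 0.137 and 26.5 ± 4.67 CPM in SK-OV-3 and at 0.725 ± 0.252 and 1.15 ± 0.395 CPM in PA-1 and passed in neither line. INHBB was at 0.878 ± 0.248 and 0.760 ± 0.534 CPM in SK-OV-3 and did not pass, and it was too low to be tested in PA-1. FST, the activin antagonist follistatin, was at 131 ± 2.48 CPM in PA-1 with DMSO and too low to be tested in SK-OV-3. FGF21, a stress hormone and ATF4 target, was at 1.04 ± 0.226 CPM in PA-1 with DMSO, and had no count in any of the 6 SK-OV-3 libraries, which allows up to 3 counts in a library, or 0.0559 to 0.0793 CPM.

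Genes of the unfolded protein response of the endoplasmic reticulum moved in both directions in SK-OV-3. Of 22 genes 3 rose and 7 fell in SK-OV-3 (median -0.078), beside 10.8% and 9.56% of all genes. In PA-1, 1 rose (CANX, 0.20), beside 4.65% of all genes. HSPA5, the chaperone BiP, was at 572 ± 17.2 and 548 ± 2.46 CPM in SK-OV-3 and at 636 ± 29.8 and 612 ± 34.5 CPM in PA-1 and passed in neither. DNAJC3 (-0.41) and HYOU1 (-0.28), both chaperones, fell in SK-OV-3. XBP1, the target of IRE1, rose from 101 ± 4.08 to 146 ± 2.46 CPM (0.55, SE 0.0551, adjusted p = 4.75e-05, edgeR) and DNAJB9, a target of XBP1, from 6.33 ± 0.236 to 9.17 ± 0.357 CPM (0.55, SE 0.136, adjusted p = 0.0149, edgeR). Spliced XBP1 cannot be told apart in counts per gene.

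Of 13 mitochondrial stress genes, 2 rose in SK-OV-3 and 2 rose and 1 fell in PA-1. Beside the lists of this paragraph, 10.8% of all genes rose and 9.56% fell in SK-OV-3, and 4.65% and 2.48% in PA-1. The protease LONP1 rose in both, by 0.45 and 0.39, HSPA9 rose in SK-OV-3 (0.18), SPG7 rose in PA-1 (0.24), TIMM17A was lower there (-0.27), and the chaperonin HSPD1 passed in neither (-0.073 and -0.17). Of 19 targets of p53, 4 rose and 2 fell in SK-OV-3, with CDKN1A (0.64) and BBC3 higher and TP53I3 (-1.32) and RRM2B (-0.27) lower. The p53 list shares 2 genes with the effectors of CHOP, BBC3 among them, so the 2 counts are not separate. PHLDA3 was the single p53 target of 18 tested that passed in PA-1 (0.53), and MDM2 passed in neither line (0.061 and 0.0050). Immediate early genes were mostly lower in SK-OV-3, where 9 of 16 fell and 2 rose (JUN, 0.16, and IER3, 0.23), with a median of -0.31. EGR1 fell in both lines, from 536 ± 5.26 to 235 ± 4.45 CPM in SK-OV-3 (-1.17, SE 0.0465, adjusted p = 4.05e-08, edgeR) and in PA-1 by 0.21 as a log2 value, and FOS was the other gene that fell in PA-1.

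**Figure D5:**
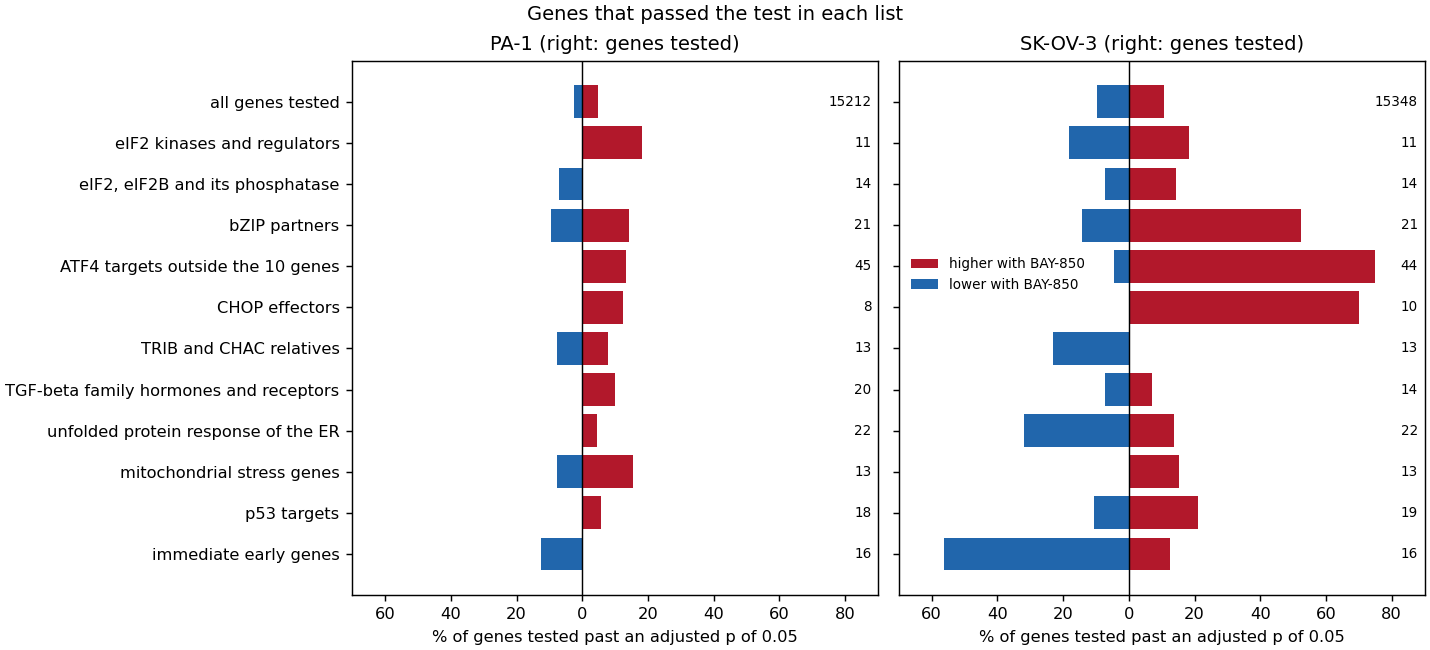
Share of the genes tested in each list that passed an adjusted p of 0.05 (horizontal axis, percent), to the right where higher and to the left where lower with BAY-850, in PA-1 and SK-OV-3, with the number of genes tested at the right edge. The top bar gives all genes tested. The bars named for TRIB and CHAC relatives and for the TGF-beta family also hold genes linked to them that are not family members. In SK-OV-3, 33 of 44 ATF4 targets and 7 of 10 CHOP effectors were higher and 9 of 16 immediate early genes lower, beside 10.8% and 9.56% of all genes. The lists were written with earlier results of these data known and some share genes, so the bars are not independent evidence.

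The genes whose levels ran most like those of the 10 genes were ranked by Pearson's r over the 12 libraries, after each line's mean had been subtracted, among 13058 genes. XBP1 (r of 0.988), BST2 (0.985), HES6 (0.983), SDCBP (0.979) and SARS, the seryl-tRNA synthetase (0.978), came first. The points share libraries and treatment groups, so r is a description of these libraries. BST2, an interferon-induced membrane protein, was at 158 ± 9.97 and 375 ± 16.5 CPM in SK-OV-3 and at 227 ± 8.27 and 199 ± 11.1 CPM in PA-1, in the order DMSO and BAY-850. SARS went from 221 ± 4.41 to 334 ± 6.65 CPM in SK-OV-3 and from 680 ± 15.2 to 629 ± 20.7 CPM in PA-1.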

How the data were processed

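The authors deposited RSEM expected counts for 26475 gene symbols in 12 libraries, without normalization. The submitters' processing notes name RSEM 1.2.15, Bowtie2 2.1.0 and hg38, and the annotation is not given in the sources used here. RSEM divides reads that fit several genes, which makes counts of overlapping or similar genes estimates. The paper describes oligo-dT selection and strand-specific libraries, while the series record names depletion of ribosomal RNA. Expected counts were rounded, filtered with edgeR's filterByExpr, scaled by TMM and tested with edgeR 4.0.16 (R 4.3.3, quasi-likelihood, Benjamini-Hochberg) per line, between the lines with DMSO, and for the interaction in all 12 libraries. The scripts were tested on simulated data. The SE is the size of the log2 fold change divided by the square root of F. Library totals limit the precision of genes below 1 CPM, where fold changes rest on few counts. P-values set the difference between groups against the spread of the 3 replicates within groups, with dispersions moderated across genes. They do not cover variation between tumors. No pair of replicates agreed within sampling noise (chi-square over its degrees of freedom from 4.96 to 68.4). Positions and GC contents come from GENCODE v29 (GRCh38), with 23900 symbols matched directly, 26 by another symbol and 2549 unmatched.

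The 10 genes and the gene lists were chosen with earlier results of these data known. Named genes are the 10, 33 chosen for their role, up to 2 per list, line and direction (those with the largest change past the threshold, with replicates that do not overlap and a mean level of 1 CPM or more), and the 5 most alike. The alternatives were DESeq2 1.42.0, RLE factors, library size alone or without ribosomal RNA genes, no filter or at least 10 counts in every library, a replicate block, a likelihood ratio test, all 12 libraries in one fit, removal of GC trends (loess span 0.5), and leaving out each library.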

Additional observations from a re-analysis of the deposited data

Results flagged for a closer look

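The results below are genes whose log2 change with BAY-850 differed between the cell lines past the threshold in the fit of all 12 libraries (the SK-OV-3 change minus the PA-1 change). For the 10 integrated stress response genes both changes were known when they were chosen. Their differences were 0.616 for ATF4, 1.56 for DDIT3, -0.545 for ATF5, 0.805 for CEBPB, 1.61 for TRIB3, 2.58 for CHAC1, 3.95 for INHBE, 2.05 for GDF15 and 0.29 for PPP1R15A. No explanation was weighed for any of these values.

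Among eIF2 kinases, eIF2 subunits and their regulators, the difference was 0.566 for EIF2AK2, 0.819 for EIF2AK3, 0.522 for EIF2S2, -0.548 for GCN1, -0.27 for ABCF1 and -0.402 for DNAJC3. Among bZIP partners and immediate early genes it was 0.747 for CEBPG, 0.716 for CEBPD, 0.728 for JDP2, 0.532 for NFE2L2, -1.86 for FOS, -4.68 for FOSB, -0.975 for EGR1 and 0.234 for IER3. Among ATF4 targets and effectors of CHOP it was 1.4 for ASNS, 0.696 for SESN2, 0.542 for DDIT4, 0.859 for STC2, 1.79 for NUPR1, 0.291 for VEGFA, 1.89 for PCK2, 0.703 for SARS, -0.38 for ALDH18A1, 1.79 for BBC3 and -0.327 for ERO1A.

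In the lists around TRIB3 and CHAC1 and around the TGF-beta family it was -0.849 for TRIB2, -0.59 for NOTCH1, -0.348 for FGFR1, 0.31 for ACVR2B and -0.283 for FURIN. For genes of the unfolded protein response, mitochondrial stress and p53 it was 0.669 for XBP1, 0.568 for DNAJB9, -0.276 for CANX, -0.446 for HYOU1, -0.31 for SPG7, 0.289 for TIMM17A, 0.606 for CDKN1A and -1.58 for TP53I3. For the remaining genes with levels most like the 10 it was 1.43 for BST2, 0.823 for HES6 and 0.406 for SDCBP. Values below 0 mean a lower change in SK-OV-3 than in PA-1.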

How the results depend on the processing

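In SK-OV-3 the 10 genes kept 7 higher and 1 lower past the threshold under every alternative that kept all libraries except at least 10 counts in every library, which left INHBE untested and 6 higher, and the range was 7 to 8 higher and 1 lower when a library was left out. ATF4 targets there ranged from 30 to 33 higher and 0 to 2 lower without one library, and 0 were lower with library size alone or the GC trend removed (also with the replicate block) and 1 with the block alone. All genes in SK-OV-3 ranged from 993 to 2050 higher and 788 to 1852 lower without one library (993 and 788 without DMSO replicate 2, and 859 lower without DMSO replicate 3), and 836 were lower with the GC trend removed and the block. Between the lines with DMSO, 2 of the 10 genes were higher and 8 lower (7 with at least 10 counts in every library, without INHBE), also without one library (6243 to 6421 and 6299 to 6508 of all genes without one library), and the interaction gave 8 and 1 (7 and 1 with that filter) (826 to 1287 and 960 to 1320 of all genes, and 773 lower with library size alone).

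In PA-1, 0 of the 10 genes were higher with library size alone or without ribosomal RNA genes, the block, all 12 libraries in one fit, or the GC trend removed with or without the block, and 4 were lower by DESeq2 and 1 with library size alone or the block, with ranges of 0 to 1 and 1 to 3 without one library. ATF4 targets were 3 higher with library size alone (4 to 7 without one library) and 4 lower by DESeq2, 3 by the likelihood ratio test and 1 without ribosomal RNA genes, without the filter or with at least 10 counts (0 to 1 without one library). All genes higher were 707, against 235 with library size alone, 469 with 12 libraries, 379 with the GC trend removed and 298 with the block as well. All genes lower were 378, against 667 by DESeq2, 231 with library size alone, 588 without the filter, 610 by the likelihood ratio test, 214 with 12 libraries, 150 with the GC trend removed and 93 with the block as well. Without one library they ranged from 273 to 810 and 65 to 418, and were 357 and 132 without DMSO replicate 1, 275 and 65 without DMSO replicate 2, 273 and 71 without BAY-850 replicate 2, and 237 lower without BAY-850 replicate 1. The cause was not tested for any of these values.

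Deviations of same-numbered replicates had correlations from -0.042 to 0.079, beside -0.079 to 0.083 for other numbers. With 3 libraries per group these values cannot decide whether the numbers pair samples, and the labels do not say. The replicate numbers as a block gave 624 higher and 307 lower genes in PA-1 and 1449 and 1267 in SK-OV-3.

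With all libraries kept, values of single genes among the 10 fell short of the threshold 8 times and newly passed it 5 times in PA-1 over these alternatives, and those of other named genes 38 and 15 times in PA-1, 30 and 3 in SK-OV-3 and 16 and 25 in the interaction. The sign turned for values near 0 that did not pass. In PA-1, CHAC1 was -0.0089 and INHBE -0.0062 with library size alone, -0.090 and -0.028 with the GC trend removed, and -0.090 and -0.028 with the block as well. EIF2AK2 was -0.024 with library size alone and -0.0075 without ribosomal RNA genes, and CDKN1A -0.0038 with library size alone. With the GC trend removed, and with the block as well, EIF2S1 was 6.5e-04 and 0.0028, DNAJB9 0.056 and 0.058, and CDKN1A -0.056 and -0.056. In SK-OV-3 under the same pair, EIF2AK1 was 0.079 and 0.078, EIF2S1 0.016 and 0.015, HSPA5 0.036 and 0.035, and HSPD1 0.012 and 0.012, while MDM2 was -0.0045 without ribosomal RNA genes and -0.0081 with 12 libraries. In the interaction EIF2AK4 was 0.011 with library size alone, and HSPA5 was 6.2e-04 by DESeq2, 5.6e-04 with RLE factors, 0.035 with library size alone, 0.014 without ribosomal RNA genes and 0.0098 with at least 10 counts. Without one library, values crossed 0 in PA-1 for CEBPB (-0.068 to 0.044), TRIB3 (-0.12 to 0.012), CHAC1 (-0.012 to 0.072), EIF2AK1 (-0.037 to 0.012), EIF2AK2 (-0.027 to 0.049), DNAJB9 (-0.084 to 0.025), CDKN1A (-0.090 to 0.11) and FGF21 (-0.045 to 0.26), in SK-OV-3 for EIF2AK1 (-0.014 to 0.017), MDM2 (-0.024 to 0.033) and INHBB (-0.93 to 0.18), and in the interaction for ATF3 (-0.029 to 0.064), EIF2AK1 (-0.027 to 0.028), EIF2AK4 (-0.079 to 0.021), EIF2S1 (-0.0029 to 0.094), FGF21 (-0.26 to 0.042) and HSPA5 (-0.045 to 0.036). Depth limits INHBE, whose untreated SK-OV-3 libraries held 4 to 8 counts.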
